A study of Mus musculus with 10 samples.

Results

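The genes described here are 10 immediate early genes, of which 7 encode subunits or close relatives of the transcription factor activator protein 1 (AP-1). They are Fos, Fosb and Fosl2 of the Fos family, Jun, Junb and Jund of the Jun family, Atf3, Egr1, Ier2 and Ier3. They were taken by gene symbol from a deposited count table of 55291 genes, and all 10 were among the 20068 genes tested. Transcripts had been measured by RNA sequencing of sorted regulatory T (Treg) cells, the CD4+ T cells that express Foxp3 and restrain immune responses, in 3 groups of libraries. The Hepa1-6 group (4 libraries, day 23) held Treg cells from tumours of Hepa1-6, a mouse hepatoma line. The E.G7 group (2 libraries, day 21) held Treg cells from tumours of E.G7, a mouse T lymphoma line derived from EL4. The LN group (4 libraries) held Treg cells from lymph nodes of mice without a tumour. All mice were of the Foxp3YFP-cre genotype, in which cells that express Foxp3 carry a fluorescent reporter and Cre. Tumour cells had been injected under the skin, tumour-infiltrating lymphocytes were isolated, and Treg cells were sorted from the CD4+ T cells among them. Lymph nodes of tumour-bearing mice were not analysed here, so the tissue, the tumour and the procedure that freed the cells from it cannot be told apart in a comparison of either tumour with LN.

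Immediate early genes are switched on within minutes of a stimulus, without new protein synthesis, by transcription factors that are already in the cell and are activated by MAP kinases, calcium or cAMP. Fos and Jun proteins share a basic leucine zipper (bZIP) domain and bind DNA as pairs. Jun proteins pair with each other or with Fos proteins, whereas Fos proteins need a Jun partner. In T cells AP-1 carries the signal of the antigen receptor and of costimulation together with NFAT, and BATF and IRF4 use Jun proteins as partners in effector Treg cells. The same genes respond to warming, enzymes and shear during tissue dissociation, which makes their level in cells taken from solid tissue sensitive to handling.

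Promoter sequences are shown for the 5 genes in which the motif searches gave a match that is classical for the family: TGACG, the core of the cAMP response element that CREB and ATF proteins bind, in Fos, Fosb, Junb and Atf3, and the site TGACATCA, bound by Jun and ATF2, in Jun. Each sequence holds the 130 bases before the RefSeq start site (build GRCm38.p6), written 5′ to 3′ along the gene's own strand. Capitals mark the TGACG sites (CGTCA on the other strand), TGACATCA and the TATA box TATAAA. Fos lies at chr12:85473760-85473889 on the plus strand. The others lie on the minus strand, Fosb at chr7:19310046-19310175, Junb at chr8:84978749-84978878, Atf3 at chr1:191183334-191183463 and Jun at chr4:95052223-95052352.
Fos: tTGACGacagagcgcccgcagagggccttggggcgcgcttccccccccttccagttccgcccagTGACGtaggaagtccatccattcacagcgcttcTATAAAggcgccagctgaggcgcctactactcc
Fosb: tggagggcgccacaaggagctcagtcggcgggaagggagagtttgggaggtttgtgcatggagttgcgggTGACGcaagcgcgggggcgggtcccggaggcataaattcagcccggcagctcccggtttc
Junb: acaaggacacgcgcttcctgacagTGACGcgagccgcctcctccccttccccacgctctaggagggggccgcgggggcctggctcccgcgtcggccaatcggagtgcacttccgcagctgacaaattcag
Atf3: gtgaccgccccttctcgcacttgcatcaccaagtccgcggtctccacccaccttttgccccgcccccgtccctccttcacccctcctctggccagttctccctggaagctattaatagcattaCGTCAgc
Jun: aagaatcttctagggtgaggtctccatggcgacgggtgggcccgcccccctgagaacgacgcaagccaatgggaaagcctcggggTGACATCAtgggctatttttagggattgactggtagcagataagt
The Fos sequence carries TGACG 2 times and the TATA box, and each of Fosb, Junb and Atf3 carries TGACG once.

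The RefSeq promoter table matched 8 of the 10 genes, all but Egr1 and Ier2. Each motif was searched in the 250 bases before the start site. Sites further upstream, and any sites of Egr1 or Ier2, were not searched. TGACG on either strand was present in 4 of the 8, against 17.8% of 32851 promoters of the same length. The full element TGACGTCA was in 0 of the 8 and 1.55% of all promoters, and the AP-1 site TGANTCA in 0 of the 8 and 6.75% of all. The CArG box, the site of serum response factor, was in 0 of the 8 and 1.47% of all promoters. TATAAA on the sense strand was in Fos alone of the 8 and in 7.59% of all promoters. CCAAT on either strand was in Jun, Junb and Ier3 and in 33.8% of all promoters. TGACATCA was searched because of its textbook role at the Jun promoter, and it was in Jun alone of the 8 and in 2.93% of all. Any TGACGTCA also counts as a TGACG match, and a match describes letters in this window and not a bound site. The Atf3 start site in RefSeq lies 34706 bases inside the deposited gene, so the Atf3 sequence does not lie at the start of the deposited gene. For Fosl2 the start site lies 671 bases from the deposited gene start, and all 130 bases before it lie in deposited exons. For Jund the start site lies 1210 bases from the deposited gene start.

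Most of the 10 genes are compact. In the coordinates of the deposited table (mm10), Jun (chromosome 4, 95049034 to 95052222), Junb (chromosome 8, 84976910 to 84978718), Jund (chromosome 8, 70698949 to 70700616) and Ier2 (chromosome 8, 84661331 to 84662854) each consist of a single exon block. Single-block genes made up 4 of the 10, against 371 of 14029 tested protein-coding genes (2.64%). The median span was 3286.5 bases, with Ier3 shortest at 1240 and Atf3 longest at 47744, against a median of 23464 bases over the tested protein-coding genes. Exons of Jund overlap the antisense gene Gm11175, which had 0 counts in every library, and exons of Jun overlap the antisense gene Junos. The sources used here do not give the strand setting of the counting, so reads of these pairs cannot be told apart. Reads in an overlap may also have been left uncounted.

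Total counts ran from 26224286 to 26665325 in Hepa1-6 libraries, 26585350 to 26663336 in E.G7 libraries and 22665563 to 24472849 in LN libraries. Levels are given as CPM, the read count scaled to a common library size. Foxp3 was present in every group, at 82.0 ± 11.0 CPM in Hepa1-6, 50.2 ± 4.34 in E.G7 and 109 ± 10.8 in LN (SD, n = 4, 2 and 4). Summed levels of 9 Treg and pan T cell genes were 5844 to 5955 CPM in Hepa1-6, 5116 to 5297 CPM in E.G7 and 5273 to 5544 CPM in LN. Ctla4 alone supplied 1410 CPM of the mean sum in Hepa1-6, 1261 CPM in E.G7 and 410 CPM in LN. Of the 9 genes, 1 rose and 5 fell in Hepa1-6 against LN (median log2 -0.24), and 1 rose and 6 fell in E.G7 (median log2 -0.2). Il2ra, a receptor subunit that Treg cells carry, averaged 607 CPM in Hepa1-6, 284 CPM in E.G7 and 585 CPM in LN and fell in E.G7 (edgeR adjusted p = 6.26e-10), as did Foxp3 (edgeR adjusted p = 1.25e-06). Whether the libraries of a group are separate animals is not in the labels, and p-values therefore describe library-to-library spread that may be technical. In these bulk libraries fewer cells of a type and less RNA per cell cannot be told apart.

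Summed over the 10 genes, CPM were 8560 to 8928 in Hepa1-6 libraries, 5172 to 5308 in E.G7 libraries and 2778 to 2952 in LN libraries. The sums did not overlap between groups. They amounted to 0.873 ± 0.0159% of the scaled counts in Hepa1-6, 0.524 ± 0.0096% in E.G7 and 0.284 ± 0.00819% in LN (SD). Against LN, all 10 genes rose in Hepa1-6 (edgeR quasi-likelihood test, adjusted p under 0.05), where 37.0% of all tested genes rose and 68.0% changed in either direction. In E.G7 9 genes rose against LN and 1, Jun, fell, where 32.7% of all tested genes rose, 27.2% fell and 59.9% changed in either direction. Between the tumours, 9 of the 10 were higher in Hepa1-6 than in E.G7, where 26.1% of all tested genes were and 45.6% differed in either direction, and Jund did not pass the test. The libraries of Hepa1-6 lay above all LN libraries for all 10 genes, as for 34.1% of all tested genes. Those of E.G7 lay above all LN libraries for 9 genes, as for 36.6% of all tested genes, and below them for Jun, as for 32.6%. Those of Hepa1-6 lay above both E.G7 libraries for 9 genes, as for 31.9% of all tested genes. The median log2 fold change of the 10 was 1.83 for Hepa1-6 over LN, 1.49 for E.G7 over LN and 0.63 for Hepa1-6 over E.G7, against 0.04, 0.01 and 0.06 over all tested genes. Of all calls against LN, 54.3% were higher in Hepa1-6 and 54.6% higher in E.G7. With libraries scaled to pan T cell genes these were 68.5% and 71.4%, the median of all genes moved to log2 0.29 and 0.34, and the medians of the 10 genes were 2.08 and 1.81. Under upper-quartile scaling 45.0% and 48.3% of the calls were higher, the median of all genes moved to log2 -0.13 and -0.07, and the medians of the 10 genes were 1.65 and 1.37. Both tumours were compared with the same LN libraries, so the comparisons with LN share their control.

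**Figure D1:**
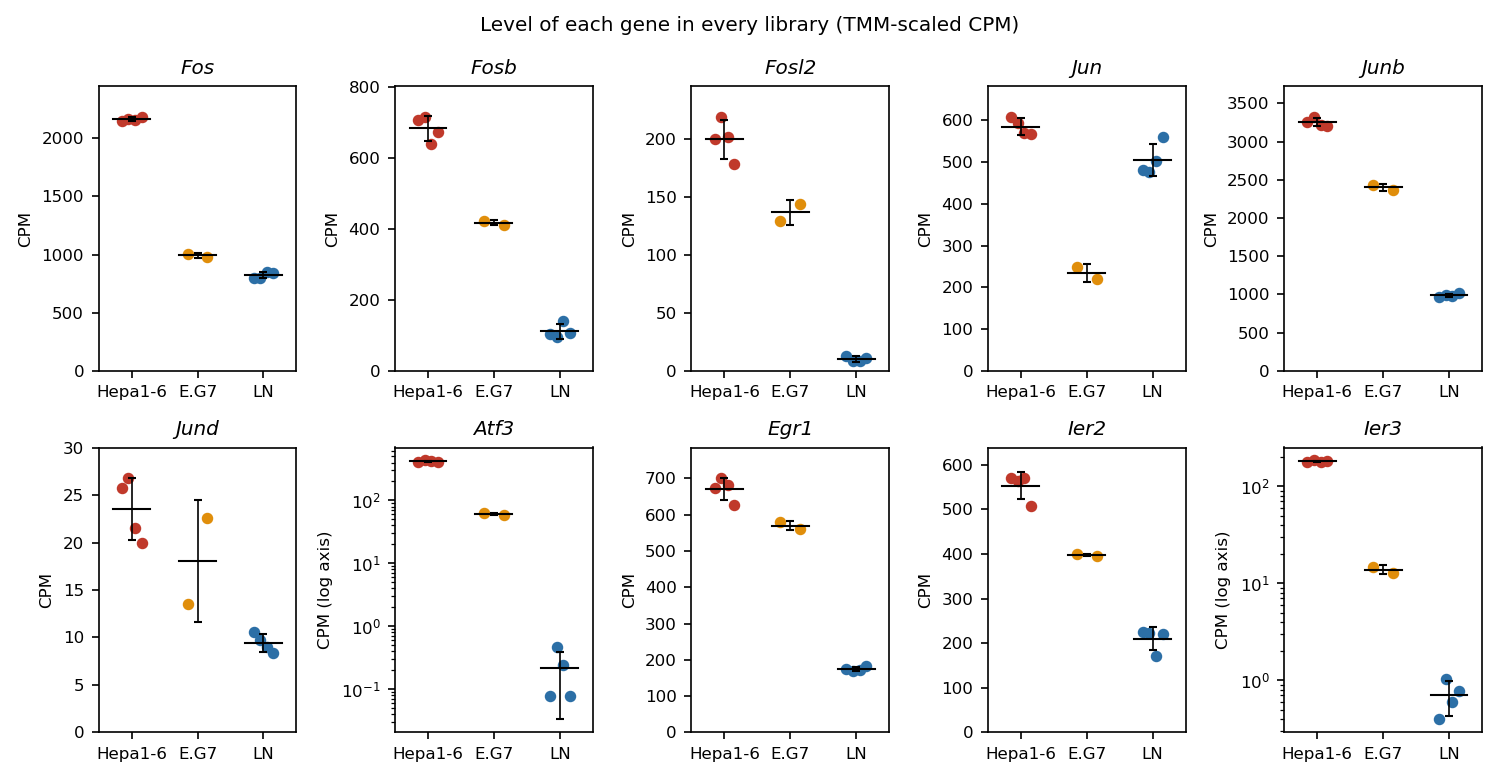
TMM-scaled CPM of the 10 genes, 1 point per library, with the group mean and SD, for Hepa1-6 (n = 4), E.G7 (n = 2) and LN (n = 4). The axis is logarithmic for Atf3 and Ier3 and linear for the other genes. Jun is the gene whose E.G7 libraries (220 and 249 CPM) lie below LN (476 to 560 CPM), and Atf3 and Ier3 span the widest range.

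Fos, the prototype of its family, had 2149, 2164, 2160 and 2187 CPM in the Hepa1-6 libraries, 1009 and 976 CPM in the E.G7 libraries, and 797, 800, 847 and 846 CPM in the LN libraries. Groups did not overlap, and the 4 Hepa1-6 libraries spread by 0.74% of their mean (coefficient of variation). Fos was 2.63-fold higher in Hepa1-6 than in LN (log2 1.40, SE 0.039, edgeR quasi-likelihood test with Benjamini-Hochberg adjustment, adjusted p = 2.31e-14). In E.G7 it was 1.21-fold higher than in LN (log2 0.27, SE 0.046, edgeR adjusted p = 9.74e-05), and over the alternative analyses this log2 difference ran from 0.15 to 0.59.

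Fosb, a Fos relative whose splice form ΔFosB is long-lived, had 706, 717, 640 and 673 CPM in Hepa1-6 libraries. E.G7 libraries had 422 and 412 CPM, and LN libraries 104, 94.9, 141 and 106 CPM. Every library of either tumour was above every LN library, and the LN libraries varied more (coefficient of variation 18.4%) than those of Hepa1-6 (5.08%). The rise was 6.13-fold in Hepa1-6 (log2 2.62, SE 0.1, edgeR adjusted p = 1.62e-10) and 3.74-fold in E.G7 (log2 1.90, SE 0.12, edgeR adjusted p = 2.11e-08).

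Fosl2, which encodes FRA-2, a Fos protein without the strong activation domain of FOS, had 200, 219, 201 and 178 CPM in Hepa1-6 libraries. E.G7 libraries had 129 and 144 CPM, and LN libraries 13.2, 8.25, 8.48 and 10.8 CPM. Fosl2 was low in LN and well separated from both tumours. It rose 19.6-fold in Hepa1-6 (log2 4.29, SE 0.13, edgeR adjusted p = 4.75e-12) and 13.4-fold in E.G7 (log2 3.75, SE 0.14, edgeR adjusted p = 9.61e-11). Between the tumours it was 1.46-fold higher in Hepa1-6 (edgeR adjusted p = 0.00554). Without E.G7 replicate 1 that difference had an edgeR adjusted p of 0.0879.

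Within the Fos family, Fosl2 supplied more of the summed level in each tumour than in LN. Of the summed level per kilobase of Fos, Fosb, Fosl1 and Fosl2, Fos supplied 87.4 ± 0.569% in Hepa1-6, 83.8 ± 0.283% in E.G7 and 94.9 ± 0.713% in LN. Fosb supplied 10.4 ± 0.488%, 13.3 ± 0.0194% and 4.83 ± 0.736% in Hepa1-6, E.G7 and LN. Fosl2 supplied 1.96 ± 0.165%, 2.81 ± 0.273% and 0.286 ± 0.0705% in the same order. The Fosl2 share was 1.67 percentage points higher in Hepa1-6 than in LN (exact two-sided permutation test, p = 0.0286, the smallest that 70 splits allow). It was 2.52 points higher in E.G7 than in LN (exact permutation p = 0.0667, the smallest that 15 splits allow). The size of these differences depends on the division by gene length. Without it the Fosl2 share was 5.46 points higher in Hepa1-6 and 7.76 points higher in E.G7 than in LN. The family's summed level was 1053 ± 7.38 CPM per kilobase in Hepa1-6, 503 ± 9.99 in E.G7 and 369 ± 14.1 in LN.

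Jun, the only Jun gene that did not move the same way in both tumours, had 609, 593, 570 and 566 CPM in Hepa1-6 libraries. E.G7 libraries had 249 and 220 CPM, and LN libraries 482, 476, 503 and 560 CPM. Hepa1-6 libraries lay just above LN (lowest Hepa1-6 566, highest LN 560 CPM), and both E.G7 libraries lay well below it. Against LN, Jun was 1.16-fold higher in Hepa1-6 (log2 0.21, SE 0.057, edgeR adjusted p = 0.00438). Under upper-quartile scaling this difference was log2 0.03 and was not called (edgeR adjusted p = 0.677). In E.G7 Jun was 2.15-fold lower than in LN (log2 -1.11, SE 0.074, edgeR adjusted p = 3.21e-09), with log2 differences of -1.22 to -0.78 over the alternative analyses. Hepa1-6 and E.G7 differed 2.49-fold (log2 1.32, SE 0.075, edgeR adjusted p = 8.8e-10).

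The protein of Junb is a component of the AP-1 that T cells use with BATF and IRF4. Junb had 3259, 3327, 3218 and 3204 CPM in Hepa1-6 libraries, 2429 and 2369 in E.G7, and 970, 995, 983 and 1017 in LN. It was tightly grouped in each tissue. Junb rose 3.28-fold in Hepa1-6 (log2 1.71, SE 0.036, edgeR adjusted p = 9.25e-16) and 2.42-fold in E.G7 (log2 1.28, SE 0.042, edgeR adjusted p = 6.23e-13). Among all genes of a library ordered by level per kilobase, it held places 12 to 13 in Hepa1-6, 13 to 14 in E.G7 and 37 to 45 in LN.

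Jund, which most tissues express without a stimulus, was counted at a low level in all groups. Because of its overlap with Gm11175 it may be undercounted, here and in the shares and orders below. Jund had 25.7, 26.8, 21.5 and 20 CPM in Hepa1-6 libraries, 13.5 and 22.6 in E.G7, and 10.6, 9.76, 9 and 8.35 in LN. The 2 E.G7 libraries were far apart (363 and 615 counts), and the higher one lay within the Hepa1-6 range. Jund was 2.49-fold higher in Hepa1-6 than in LN (edgeR adjusted p = 1.84e-06) and 1.91-fold higher in E.G7 than in LN (edgeR adjusted p = 0.000416). With 1 of the E.G7 libraries left out, the difference between E.G7 and LN was log2 1.27 without replicate 1 and 0.52 without replicate 2, and both passed the test. Hepa1-6 and E.G7 did not pass the test for Jund (log2 0.38, SE 0.19, edgeR adjusted p = 0.115), and without E.G7 replicate 2 the difference was log2 0.79 (edgeR adjusted p = 0.00823). Without E.G7 replicate 1 it was log2 0.05 (edgeR adjusted p = 0.89).

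The make-up of the Jun family differed with Jun and Junb. Junb supplied 89.7, 90.1, 90.3 and 90.3% of the summed Jun, Junb and Jund level per kilobase in Hepa1-6 libraries, 94.0 and 94.1% in E.G7 libraries, and 77.3, 78.0, 76.9 and 75.7% in LN libraries. Jun supplied 9.18 ± 0.219% in Hepa1-6, 5.22 ± 0.355% in E.G7 and 22.2 ± 1.05% in LN. The Junb share was 13.1 percentage points higher in Hepa1-6 than in LN (exact two-sided permutation test, p = 0.0286, the smallest possible). It was 17.0 points higher in E.G7 than in LN (exact permutation p = 0.0667, the smallest possible with 2 libraries against 4). Hepa1-6 lay below E.G7 by 3.9 points (difference -3.9, exact permutation p = 0.0667, the smallest possible). Without division by gene length the Junb share was 18.4 points higher in Hepa1-6 and 24.6 points higher in E.G7 than in LN.

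**Figure D2:**
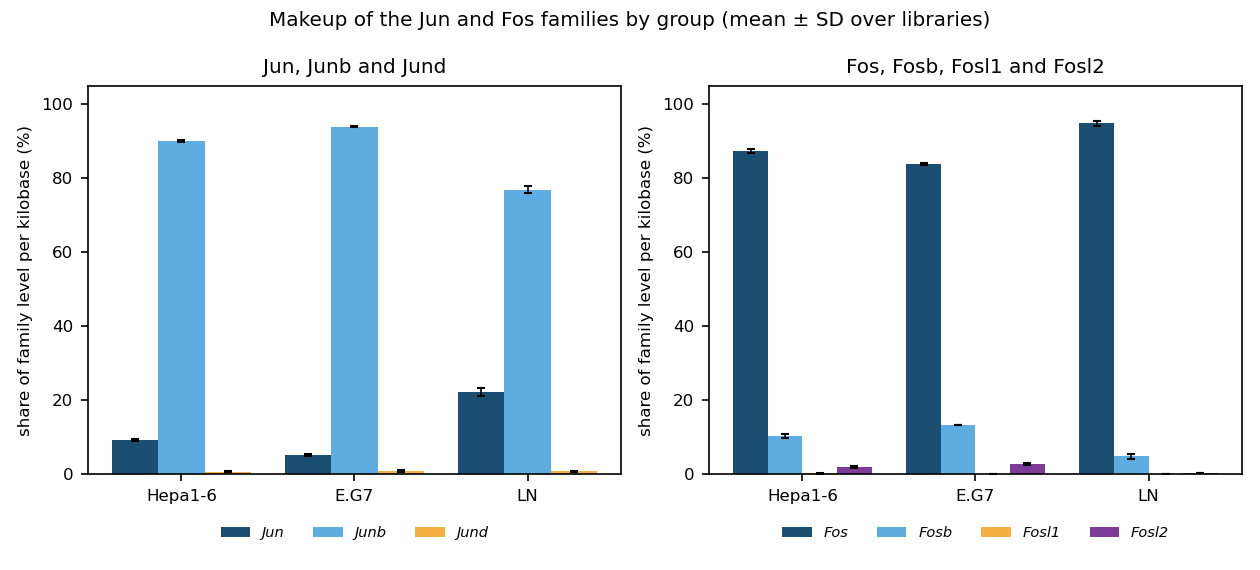
Share (%) of the summed level per kilobase that each gene supplied within the Fos family and within the Jun family, as group means with SD for Hepa1-6, E.G7 and LN. Junb supplied 90.1% of the Jun family in Hepa1-6, 94.0% in E.G7 and 77.0% in LN.

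Atf3, a bZIP factor of the CREB family that is induced by stress and pairs with Jun proteins, had the largest fold change of the 10. It had 409, 432, 416 and 413 CPM in Hepa1-6 libraries, 62.9 and 59.2 in E.G7, and 0.0791, 0.463, 0.241 and 0.0777 in LN. The LN values rest on 2, 12, 6 and 2 counts, 22 in all, against 10003 to 10435 counts in Hepa1-6 libraries. Atf3 was 1890-fold higher in Hepa1-6 than in LN (log2 10.88, SE 0.16, edgeR adjusted p = 1.09e-16) and 276-fold higher in E.G7 than in LN (log2 8.11, SE 0.18, edgeR adjusted p = 3.85e-14). With so few LN counts the fold depends on the method, and over the alternative analyses log2 ran from 7.46 to 11.57 for Hepa1-6 and 4.73 to 8.79 for E.G7. Each upper value came from leaving out LN replicate 2, the LN library with 12 counts. The Hepa1-6 level was 6.84-fold that of E.G7 (log2 2.77, SE 0.12, edgeR adjusted p = 1.03e-10).

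Egr1, a zinc finger factor induced through serum response factor and ERK, had 673, 701, 682 and 628 CPM in Hepa1-6 libraries. E.G7 libraries had 579 and 561 CPM, and LN libraries 175, 169, 172 and 183 CPM. Both tumours stood far above LN and close to each other. Egr1 rose 3.84-fold in Hepa1-6 (log2 1.94, SE 0.048, edgeR adjusted p = 6.33e-15) and 3.26-fold in E.G7 (log2 1.70, SE 0.055, edgeR adjusted p = 5.32e-13). The 1.18-fold difference of Hepa1-6 from E.G7 (log2 0.24, SE 0.057, edgeR adjusted p = 0.00303) was the smallest among the 9 genes that differed between the tumours.

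Ier2, a nuclear protein of the immediate early response, had 569, 564, 570 and 507 CPM in Hepa1-6 libraries. E.G7 libraries had 399 and 396 CPM, and LN libraries 226, 223, 172 and 220 CPM. Hepa1-6 replicate 4 and LN replicate 3 each lay below the rest of their group, and the groups did not overlap. Ier2 rose 2.62-fold in Hepa1-6 (edgeR adjusted p = 2.9e-10) and 1.89-fold in E.G7 (edgeR adjusted p = 3.97e-07).

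Ier3, which encodes IEX-1, a regulator of cell survival induced by NF-κB, had 178, 185, 179 and 183 CPM in Hepa1-6 libraries. E.G7 libraries had 14.9 and 12.8 CPM, and LN libraries 0.395, 1.04, 0.603 and 0.777 CPM. The groups differed by more than 10-fold at each step. Ier3 was 255-fold higher in Hepa1-6 than in LN (log2 7.99, SE 0.14, edgeR adjusted p = 7.75e-17) and 19.5-fold higher in E.G7 than in LN (log2 4.28, SE 0.16, edgeR adjusted p = 3.47e-12). LN libraries held 10 to 27 counts of it. Hepa1-6 exceeded E.G7 13.1-fold (log2 3.71, SE 0.13, edgeR adjusted p = 3.13e-12), the largest difference between the tumours among the 10.

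**Figure D3:**
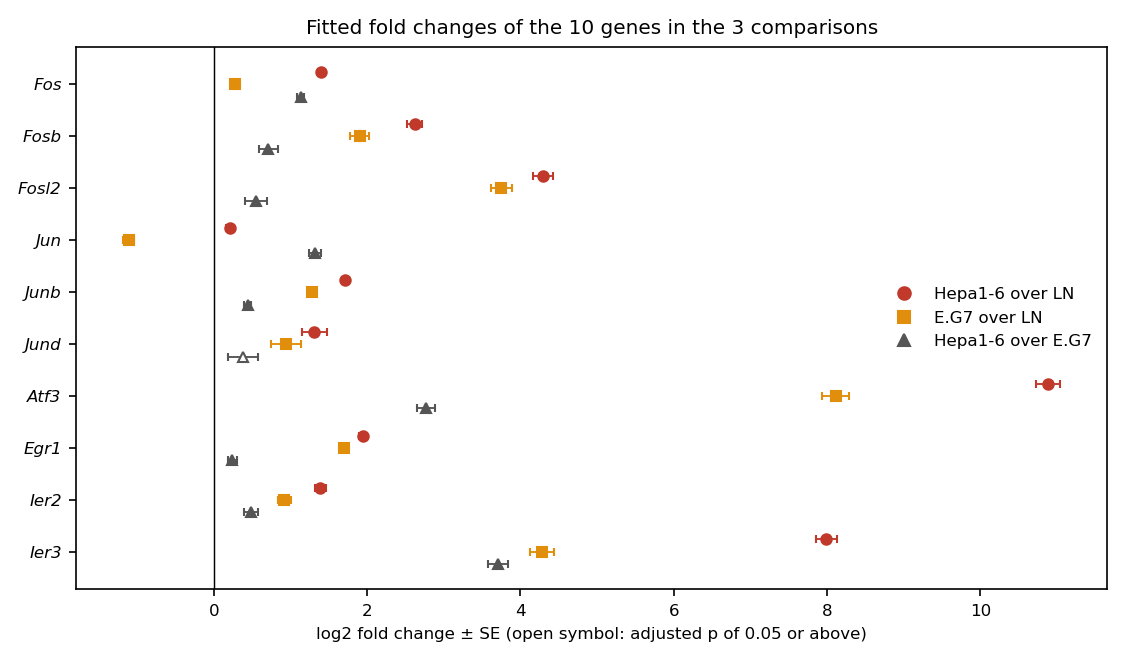
Log2 fold change with its SE for each of the 10 genes, for Hepa1-6 over LN, E.G7 over LN and Hepa1-6 over E.G7. Jun is the single gene below 0, at -1.11 in E.G7 over LN, and Atf3 (10.88 and 8.11) and Ier3 (7.99 and 4.28) stand furthest from 0 against LN.

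Between the tumours, Fos was 2.18-fold (edgeR adjusted p = 3.53e-11), Fosb 1.64-fold (edgeR adjusted p = 0.000418), Junb 1.36-fold (edgeR adjusted p = 5.62e-07) and Ier2 1.39-fold higher in Hepa1-6 than in E.G7 (edgeR adjusted p = 0.000608). For the 9 genes that passed the test, no E.G7 library reached any Hepa1-6 library.

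The order of the genes by level also differed between tissues. Levels per kilobase of gene length in Hepa1-6 were highest for Junb (1798 ± 30.5 CPM per kilobase) and Fos (920 ± 6.81), followed by Ier2 (362 ± 20). Atf3 (194 ± 4.64) and Jun (183 ± 6.37) came next and overlapped, and Ier3 (160 ± 2.71), Egr1 (150 ± 6.89), Fosb (110 ± 5.57), Fosl2 (20.6 ± 1.74) and Jund (14.1 ± 1.96) closed the order. In E.G7 the order of levels per kilobase was Junb (1326 ± 23.5), Fos (422 ± 9.8), Ier2 (261 ± 1.58), Egr1 (127 ± 2.88), Jun (73.6 ± 6.37), Fosb (66.8 ± 1.23), Atf3 (28.3 ± 1.24) and Fosl2 (14.1 ± 1.09). Ier3 (12.2 ± 1.31) and Jund (10.8 ± 3.88) were last and overlapped. In LN it was Junb (548 ± 11.0), Fos (350 ± 11.7), Jun (158 ± 12), Ier2 (138 ± 16.7), Egr1 (39.0 ± 1.36), Fosb (17.9 ± 3.29) and Jund (5.66 ± 0.591). Fosl2 (1.05 ± 0.239) and Ier3 (0.622 ± 0.242) overlapped there, and Atf3 (0.0999 ± 0.0845) was last. No other neighbours in these orders overlapped between libraries of a group. Junb and Fos thus led in all 3 tissues, while Atf3 lay just behind Ier2 in Hepa1-6, behind Fosb in E.G7 and last in LN.

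Within a group the 10 genes did not all rank the libraries alike. Among Hepa1-6 libraries replicate 2 was highest for 7 of the 10 and replicate 4 lowest for 6. Of the E.G7 libraries replicate 1 was higher for 8 genes and replicate 2 for Fosl2 and Jund.

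For each gene the 3 genes with the most similar profile over the 10 libraries were found among 9690 candidates, by the root mean square (RMS) difference of centred log2 CPM. Nearest to Fos were Matk (RMS 0.07), Rnh1 (0.08) and Nfe2l2 (0.09), and nearest to Fosb were Prdm1 (0.12), Tiparp (0.14) and Maff (0.16). Fosl2 was nearest to Sv2c (0.19), Anxa2 (0.22) and Egln3 (0.22). Jun was nearest to Smpd2 (0.1), Lpp (0.11) and Calhm6 (0.11), and Junb to Cxcr3 (0.06), Gpi1 (0.08) and Scd2 (0.09). Egr1 was nearest to Nfkbia (0.06), Ifngr1 (0.06) and Zbtb46 (0.07), Ier2 to Tnfrsf4, Wsb1 and Pgd (0.1 each), and Jund to Adipor2 (0.13), Mex3c (0.14) and N4bp1 (0.17). Atf3 had no close neighbour: its nearest were Il1b (0.44), Pla2g7 (0.56) and Cd14 (0.57), all near 0 in LN. Ier3 was nearest to P2ry6 (0.21), Cd63 (0.25) and C1qc (0.26). Of these neighbours, Cd14 and C1qc were in the macrophage and neutrophil marker list used here, and Zbtb46 was in the dendritic cell list. Among the 10 genes themselves Junb and Egr1 were the closest pair (RMS 0.17) and Jun and Atf3 the farthest (RMS 4.88).

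Markers of other cell types also differed between the groups, and not all in the same order. The summed level of 14 macrophage and neutrophil markers was 3797 to 4095 CPM in Hepa1-6, 734 to 765 CPM in E.G7 and 25.1 to 36.7 CPM in LN. In LN 2 of the 14, S100a9 and Ly6g, were at 0. Csf1r, the receptor that defines macrophages, averaged 430 CPM in Hepa1-6, 40.3 CPM in E.G7 and 2.03 CPM in LN. The summed level of 10 dendritic cell and MHC class II markers was 9505 to 9889 CPM in Hepa1-6, 1727 to 1787 CPM in E.G7 and 157 to 179 CPM in LN. For 12 hepatoma markers it was 2772 to 2816 CPM in Hepa1-6, 118 to 122 CPM in E.G7 and 7.79 to 10.2 CPM in LN. Trf, which encodes transferrin, supplied 115 CPM of the mean sum in E.G7, where Alb (albumin) was at 0.0554 CPM and Afp (alpha-fetoprotein) at 1.96 CPM, against 0.0389 and 6.48 CPM in LN. For 12 stroma and endothelium markers it was 1121 to 1211 CPM in Hepa1-6, 191 to 223 CPM in E.G7 and 225 to 242 CPM in LN. Pecam1 averaged 72.6 CPM in Hepa1-6, 78.7 CPM in E.G7 and 228 CPM in LN, nearly all of the LN sum. Of the 12, 11 rose in E.G7 against LN (median log2 4.78) and 1, Pecam1, fell. The sums in Hepa1-6 were 5.24-fold those in E.G7 for macrophages and neutrophils, 5.53-fold for dendritic cells and 5.72-fold for stroma. They were 23.3-fold for hepatoma, 3.66-fold for CD8 T and NK cells and 1.13-fold for Treg and pan T cell genes. For the B cell and the immature thymocyte and lymphoma markers below, the Hepa1-6 sums were lower than those in E.G7. Over the same pair of groups Ier3 differed 13.1-fold, Atf3 6.84-fold and the other 8 genes 1.18- to 2.49-fold. Of 10 CD8 T and NK cell markers the sum was 516 to 556 CPM in Hepa1-6, 145 to 146 CPM in E.G7 and 29.8 to 34.4 CPM in LN. For 6 markers of immature thymocytes and lymphoma it was 64.2 to 75.4 CPM in Hepa1-6, 196 to 205 CPM in E.G7 and 17.6 to 20 CPM in LN. Of these, 3 were tested, and 1 rose in Hepa1-6 against LN (median log2 0.3) while all 3 rose in E.G7 (median 4.34). Cd8b1 is in this list and also in the CD8 T and NK cell list. The sum of 8 B cell markers was 375 to 447 CPM in Hepa1-6, 634 to 640 CPM in E.G7 and 836 to 952 CPM in LN. Of the B cell sum, Ighm supplied 378 CPM in Hepa1-6, 595 CPM in E.G7 and 865 CPM in LN. Apart from S100a9 and Ly6g, the markers at 0 in LN were Ncr1 of NK cells, Apob, Serpina1a and Krt19 of hepatoma, Col3a1, Dcn and Vwf of stroma and endothelium, and Rag1 and Rag2 of immature thymocytes. Serpina1a and Rag1 were also at 0 in both tumours, and Ttr and Rag2 in E.G7. The part of these cell types in the levels of the 10 genes was not tested.

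Most of 24 other immediate early genes rose as well. In all, 20 rose and 3 fell in Hepa1-6 against LN (median log2 1.75), and 16 rose and 5 fell in E.G7 against LN (median 0.97). Among all tested genes 37.0% rose in Hepa1-6 and 32.7% in E.G7. Nr4a1, an orphan receptor that reports antigen receptor signalling, averaged 1066 CPM in Hepa1-6, 911 CPM in E.G7 and 166 CPM in LN (6.43- and 5.5-fold over LN, edgeR adjusted p = 6.28e-17 and 3.38e-15). Klf6 averaged 1316 CPM in Hepa1-6, 822 CPM in E.G7 and 397 CPM in LN, and Zfp36, which destabilises cytokine mRNA, 1754, 849 and 561 CPM in the same order. Both rose in both tumours (edgeR adjusted p at most 7.97e-08). Dusp1, which inactivates MAP kinases, averaged 2467 CPM in Hepa1-6, 1373 CPM in E.G7 and 1020 CPM in LN and also rose in both (edgeR adjusted p = 1.22e-12 and 9.13e-06). The 3 that fell in Hepa1-6 were Egr3 (8.53 CPM in Hepa1-6 against 12.1 CPM in LN, edgeR adjusted p = 0.00487, but 0.129 under pan T cell scaling with log2 -0.26), Btg2 (510 against 717 CPM, edgeR adjusted p = 4.06e-08) and Myc (194 against 276 CPM, edgeR adjusted p = 3.71e-07). In E.G7 Egr2 (40.8 CPM against 69.4 CPM in LN, edgeR adjusted p = 8.39e-06), Egr3 (5.47 against 12.1 CPM, edgeR adjusted p = 5.75e-05), Btg2 (390 against 717 CPM, edgeR adjusted p = 1.09e-09), Mcl1 and Myc fell. Egr2 averaged 84.8 CPM in Hepa1-6 and passed the test there against LN (log2 0.29, edgeR adjusted p = 0.00467), with overlapping libraries and no call under upper-quartile scaling (log2 0.11, adjusted p = 0.243). The fall of Myc in E.G7 (245 against 276 CPM, log2 -0.17, edgeR adjusted p = 0.0333) was lost without any 1 of E.G7 replicates 1 and 2 and LN replicates 1 and 4 (log2 -0.16 each) and turned to log2 0.15 when libraries were scaled to pan T cell genes (adjusted p = 0.0853). DESeq2 did not call Myc in E.G7 either (log2 -0.13, DESeq2 adjusted p = 0.107), and this result stayed the same in 8 of 18 alternative analyses. Egr2 and Egr3 thus did not share the rise of Egr1 in E.G7.

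Other bZIP genes that pair or compete with AP-1 mostly rose too. Of 17, 14 rose and 3 fell in Hepa1-6 against LN (median log2 1.33), and 13 rose and 3 fell in E.G7 (median 1.14). Among all tested genes 37.0% rose in Hepa1-6 and 32.7% in E.G7. The 3 that fell in both tumours were Bach2, Atf2 and Atf7. Bach2, a repressor that restrains effector differentiation of T cells at AP-1 sites, averaged 10.8 CPM in Hepa1-6, 19.7 CPM in E.G7 and 78.9 CPM in LN. It was 7.33-fold lower in Hepa1-6 than in LN (edgeR adjusted p = 9.18e-14) and 3.99-fold lower in E.G7 than in LN (edgeR adjusted p = 2.73e-10). Crem, a cAMP-responsive bZIP gene, averaged 279 CPM in Hepa1-6, 218 CPM in E.G7 and 38.0 CPM in LN (7.34- and 5.74-fold, edgeR adjusted p = 1.01e-14 and 6.08e-13). Batf, the AP-1 factor of effector Treg cells, averaged 137 CPM in Hepa1-6, 134 CPM in E.G7 and 95.5 CPM in LN, a smaller rise (1.43- and 1.4-fold, edgeR adjusted p = 1.46e-06 and 2.75e-05). Batf3 had no count in LN. Against a floor of 3 counts over the LN group (0.0295 CPM) it was at least 188-fold higher in Hepa1-6 (5.54 CPM) and at least 33.9-fold higher in E.G7 (0.998 CPM). Maf averaged 136 CPM in Hepa1-6, 76.8 CPM in E.G7 and 61.8 CPM in LN (edgeR adjusted p = 1.77e-10 and 0.00232), and without E.G7 replicate 2 the E.G7 rise was not called (adjusted p = 0.0729). Maff averaged 18.1, 12.3 and 2.75 CPM in Hepa1-6, E.G7 and LN, Fosl1 4.18, 0.74 and 0.147 CPM, and Jdp2 1.68, 0.776 and 0.176 CPM, and all 3 rose in both tumours (edgeR adjusted p at most 0.00172). Fosl1 and Jdp2 had 15 and 18 counts in all over the LN libraries, so their folds depend on the method. Over the alternative analyses log2 in E.G7 ran from 0.34 to 2.76 for Fosl1 and from 0.33 to 2.5 for Jdp2. Exons of Fosl1 overlap the gene Ccdc85b.

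How many genes upstream of AP-1 rose or fell depended on the scaling. Of 19 genes of the MAP kinase and serum response factor input, 8 rose and 7 fell in Hepa1-6 against LN (median log2 0.16), and 6 rose and 5 fell in E.G7 (median 0.17), where 37.0% and 32.7% of all tested genes rose. Under pan T cell scaling 12 rose and 4 fell in Hepa1-6 (median log2 0.41), and 12 rose and 3 fell in E.G7 (median 0.5). Under upper-quartile scaling 5 rose and 7 fell in Hepa1-6 (median log2 -0.02), and 2 rose and 6 fell in E.G7 (median 0.06). Map2k4, an activator of JNK, averaged 58.1 CPM in Hepa1-6, 55.5 CPM in E.G7 and 34.7 CPM in LN and rose in both (edgeR adjusted p = 8.85e-05 and 0.00112). Mapk8, which encodes JNK1, averaged 21.6 CPM in Hepa1-6, 29.3 CPM in E.G7 and 27.4 CPM in LN (edgeR adjusted p = 0.0096 and 0.545). Mapk9, which encodes JNK2, averaged 49.9, 44.1 and 37.3 CPM (edgeR adjusted p = 0.00507 and 0.154), Mapk14, which encodes p38α, 45.7, 52.7 and 44.1 CPM (adjusted p = 0.573 and 0.0266), Srf 7.77, 8.98 and 6.29 CPM (adjusted p = 0.0679 and 0.0157) and Elk3 36.0, 28.8 and 30.6 CPM (adjusted p = 0.0348 and 0.528), each in the order Hepa1-6, E.G7 and LN. The calls on these 5 genes changed with the scaling. The Elk3 call in Hepa1-6 was also lost without any 1 of Hepa1-6 replicates 1, 2 and 3 and LN replicates 2, 3 and 4 (log2 0.2 to 0.24). In E.G7 Srf (log2 0.39) and Mapk14 (log2 0.15) were not called without E.G7 replicate 2, nor Mapk14 without LN replicate 4 (log2 0.2), and in Hepa1-6 Srf was called without LN replicate 2 (log2 0.39). Of 11 MAP kinase feedback genes, 9 rose and 0 fell in Hepa1-6 (median log2 2.24), and 9 rose and 1 fell in E.G7 (median 1.7). These included the phosphatase genes Dusp4 (225, 175 and 47.6 CPM in Hepa1-6, E.G7 and LN), Dusp5 (181, 119 and 13.3 CPM) and Dusp6 (285, 124 and 85.7 CPM), with edgeR adjusted p at most 2.83e-05 against LN. Dusp2 averaged 397 CPM in Hepa1-6, 308 CPM in E.G7 and 292 CPM in LN and passed neither test (edgeR adjusted p = 0.172 and 0.873). Under pan T cell scaling Dusp2 was called in Hepa1-6 (log2 0.7, edgeR adjusted p = 0.0353).

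Of 5 genes for the partners of AP-1 in T cells, 2 rose and 2 fell in each tumour against LN (median log2 0.17 in Hepa1-6 and -0.14 in E.G7). Over the 20068 genes tested, 7419 rose and 6237 fell in Hepa1-6, and 6554 rose and 5459 fell in E.G7. Irf4 averaged 115 CPM in Hepa1-6, 108 CPM in E.G7 and 77.0 CPM in LN and rose in both (edgeR adjusted p = 4.73e-07 and 3.02e-05). Nfatc2 averaged 130 CPM in Hepa1-6, 100 CPM in E.G7 and 153 CPM in LN and fell in both (edgeR adjusted p = 0.00717 and 1.86e-05), with a log2 difference of 0.02 for Hepa1-6 when libraries were scaled to pan T cell genes. Nfatc1 averaged 371, 299 and 329 CPM in Hepa1-6, E.G7 and LN and passed neither test (edgeR adjusted p = 0.245 and 0.473), but without Hepa1-6 replicate 4 it was called in Hepa1-6 (log2 0.3), as it was under pan T cell scaling (log2 0.42). The median of the 5 changed sign with the scaling, to -0.01 in Hepa1-6 under upper-quartile scaling and 0.19 in E.G7 under pan T cell scaling.

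Most heat shock genes, which also respond to tissue handling, rose, and some fell. Of 12, 9 rose and 1 fell in Hepa1-6 against LN (median log2 0.50), and 8 rose and 4 fell in E.G7 (median 0.50). Among all tested genes 37.0% rose in Hepa1-6 and 32.7% in E.G7. Under upper-quartile scaling the medians were 0.31 in Hepa1-6 and 0.38 in E.G7. Under pan T cell scaling they were 0.75 and 0.82. Hsp90aa1 averaged 813 CPM in Hepa1-6, 1305 CPM in E.G7 and 527 CPM in LN, and Hspa8 averaged 2969, 2873 and 1988 CPM, and both rose in both tumours (edgeR adjusted p at most 5.4e-07). Dnajb1, a cochaperone that heat shock induces, averaged 332 CPM in Hepa1-6, 269 CPM in E.G7 and 432 CPM in LN and fell in both (edgeR adjusted p = 1.3e-06 and 3.2e-08). Hspa1a averaged 107 CPM in Hepa1-6, 39.4 CPM in E.G7 and 74.4 CPM in LN (edgeR adjusted p = 3.35e-07 and 1.44e-08), thus rising in Hepa1-6 and falling in E.G7. Hspa1b averaged 11.1 CPM in Hepa1-6, 3.44 CPM in E.G7 and 10.9 CPM in LN (edgeR adjusted p = 0.886 and 4.99e-06). Hspa1a and Hspa1b are near-identical copies, so the split of reads between them is uncertain. The part of dissociation in the levels of the 10 genes was not tested.

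**Figure D4:**
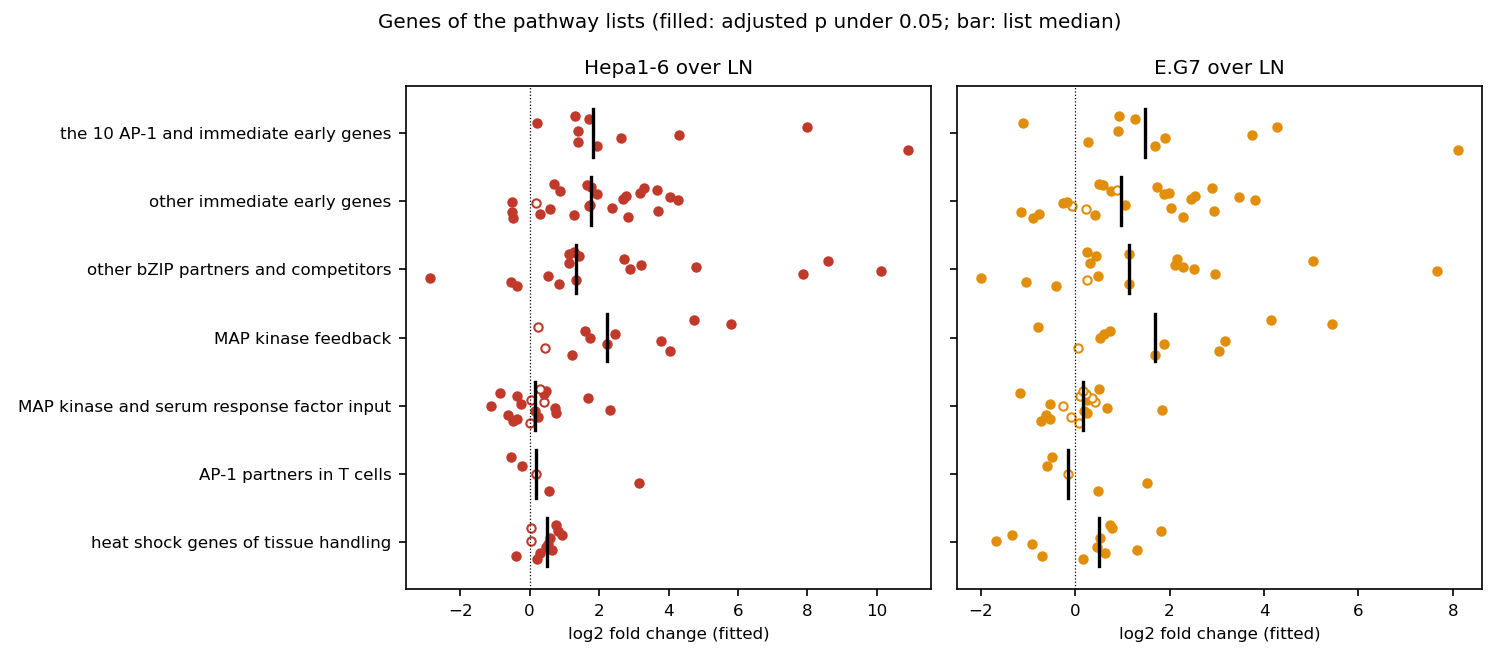
Log2 fold changes over LN of the 10 genes and of the other gene lists, 1 point per gene, with the list median, for Hepa1-6 and E.G7. Batf3, without a count in LN, is drawn at its fitted values of 10.13 in Hepa1-6 and 7.67 in E.G7. These depend on the fit, and the lower bounds are log2 7.55 and 5.08. The median is 1.83 and 1.49 for the 10 genes, 1.75 and 0.97 for the other immediate early genes, and 0.16 and 0.17 for the MAP kinase and serum response factor input.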

How the data were processed

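The 10 libraries of sorted mouse Treg cells were grouped by the sample titles. Read counts of 55291 genes were deposited as whole numbers and, per the file headers, come with exons and gene lengths as featureCounts writes them. The deposited FPKM tables list 12930 genes and equal the authors' counts divided by gene length and by 1 constant per library (24336121 to 27401130). HISAT2, Subread with featureCounts, RSEM and DESeq2 were used on build mm10, per the submitters' processing notes. Versions, strand setting and annotation release are not given in the sources used here.

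Counts were fitted with edgeR 4.0.16 in R 4.3.3 (filterByExpr, TMM scaling, 1 quasi-likelihood model of the 10 libraries with a term per group), which gave a biological coefficient of variation of 13.0%. P-values were adjusted by Benjamini-Hochberg over 20068 genes, with 0.05 as the threshold and no minimum fold. Levels are TMM-scaled CPM, divided by the deposited gene length where genes are compared. The alternatives used DESeq2 1.42.0, limma 3.58.1 (limma-voom, and limma on log2 of the authors' FPKM plus a pseudocount of 1 or 0.1), other scalings, filters and left-out libraries. Replicates of a group differed by more than sampling noise (chi-square per degree of freedom 7.407 to 18.85 over genes whose counts summed to 20 or more), so none was treated as a repeat deposit. Floors cover counting error only. Profile similarity used genes with a mean of at least 10 CPM in at least 1 group and a pseudocount of 0.1 CPM. It left out predicted genes, Rik genes, pseudogenes and segments of antigen receptors. Promoters came from the RefSeq table of GRCm38.p6, whose coordinates are those of mm10.

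The 10 genes, the other lists and the 34 further genes named were chosen with earlier results of these data known, and those 34 are reported against LN. Mcl1, Atf2, Atf7 and markers are named because a count or list refers to them.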

Additional observations from a re-analysis of the deposited data

Results flagged for a closer look

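Ier2 was the single gene of the 10 with libraries apart from their own group by Dixon's criterion. Hepa1-6 replicate 4 was lowest at 507 CPM, with the other 3 libraries at 564 to 570 CPM. LN replicate 3 was lowest at 172 CPM, with the other 3 at 220 to 226 CPM. In all, 24 groups of 4 values were examined, and chance marks about 1 in 20 groups.

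For 9 of the 10 genes the change over LN differed between the tumours by a test of that difference, which is the contrast of Hepa1-6 with E.G7 (edgeR quasi-likelihood test, adjusted p under 0.05, with every Hepa1-6 library above both E.G7 libraries). On the log2 scale the difference was 3.71 for Ier3, 2.77 for Atf3, 1.32 for Jun, 1.13 for Fos, 0.71 for Fosb, 0.55 for Fosl2, 0.48 for Ier2, 0.44 for Junb and 0.24 for Egr1. Jun was the gene whose change against LN had opposite signs in the 2 tumours, with log2 0.21 in Hepa1-6 and -1.11 in E.G7.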

How the results depend on the processing

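All 10 genes kept the direction of every fold change reported for them under every alternative run. The calls on them that changed were Jun in Hepa1-6 over LN (log2 0.03 under upper-quartile scaling), Fosl2 in Hepa1-6 over E.G7 (log2 0.46 without E.G7 replicate 1) and Jund in Hepa1-6 over E.G7 (log2 0.79 without E.G7 replicate 2). In every alternative 9 of the 10 rose and Jun fell in E.G7 over LN. With the replicate number as a block, Jund in Hepa1-6 over E.G7 was log2 0.54 (edgeR adjusted p = 0.0294), and 13390, 11099 and 8369 genes were called for Hepa1-6 over LN, E.G7 over LN and Hepa1-6 over E.G7. Same-numbered libraries showed little shared deviation (r from -0.049 to 0.0287 over 8 pairs). The labels do not say whether a number marks a shared animal or day, and these correlations cannot settle it. For no other result on the 10 genes did the block change a call.

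Over all genes, a filter of 10 CPM left 8382 calls for Hepa1-6 over LN and 7913 for E.G7 over LN, and limma left 8868 for Hepa1-6 over LN on log2(FPKM + 1) and 8851 on log2(FPKM + 0.1), each with fewer genes tested. Leaving out 1 library gave 13000 to 13323 calls for Hepa1-6 over LN, 9743 to 11755 for E.G7 over LN and 6969 to 9170 for Hepa1-6 over E.G7.

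The alternatives for genes other than the 10 were added after seeing the data. Some of these genes turned sign, and the cause was not tested. Upper-quartile scaling gave log2 -0.01 for Nfatc1, -0.13 for Mapk14 and -0.15 for Hspa1b in Hepa1-6 over LN, and -0.04 for Dusp2 and -0.02 for Mapk8 in E.G7 over LN. Pan T cell scaling gave 0.02 for Nfatc2 in Hepa1-6, and 0.15 for Myc, 0.19 for Nfatc1 and 0.24 for Elk3 in E.G7. Hspa1b in Hepa1-6 was -0.01 with no filter and -0.04 with the filter of 10 CPM, which gave Mapk14 -0.02 in Hepa1-6 and Dusp2 -0.03 and Mapk8 -0.01 in E.G7. With the replicate block Dusp2 was -0.17 in E.G7 and was called in Hepa1-6 (log2 0.49, edgeR adjusted p = 0.0135), and Nfatc1 was called in E.G7 (log2 -0.28, adjusted p = 0.0445). Leaving out 1 library moved Hspa1b in Hepa1-6 over -0.08 to 0.13, and in E.G7 Dusp2 over -0.11 to 0.25 and Elk3 over -0.2 to 0.03.

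With 2 E.G7 libraries, and 1 when a library was left out, the spread of E.G7 rests on that of the other groups. Fold changes of Atf3 and Ier3 are limited by their few LN counts.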
